A study of Mus musculus with 6 samples.

Results

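The genes described here are the 3 main FoxO transcription factors of fat (Foxo1, Foxo3 and Foxo4) and 7 genes that FoxO factors or the atrophy program are known to control (Fbxo32, Trim63, Sesn1, Sesn3, Pik3ip1, Txnip and Cited2). They were chosen by name, with earlier results of these data known. All 10 are among the 54532 genes of the deposited count table. Expression was measured by RNA-seq of total RNA from the epididymal fat pad (epididymal white adipose tissue, eWAT). The cachexia group consisted of 3 C57BL/6 mice that carried a subcutaneous tumor of LLC cells (Lewis lung carcinoma, a murine cell line), and the control group of 3 C57BL/6 mice, for which the sources used here name no treatment. The study used male mice 6 to 10 weeks old and defined cachexia by loss of body weight, with analysis on day 21. No allele or drug is named for either group. Each mouse gave 1 library, and the same-numbered libraries of the groups are different mice.

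FoxO factors are held in check by insulin. When insulin or IGF-1 activates PI3K and AKT, AKT phosphorylates FoxO proteins, 14-3-3 proteins bind them, and they leave the nucleus. When the signal falls they return and turn on genes of catabolism, stress defense and growth arrest, among them the ubiquitin ligases that drive muscle atrophy. FoxO activity is therefore set largely by the phosphorylation and location of the protein, which RNA-seq does not measure.

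Total counts ranged from 14928766 to 18855546 per library and were lower in each cachectic mouse than in each control. Expression is given as CPM, each count relative to the TMM-scaled size of its library. A gene was called higher or lower when its adjusted p-value, from edgeR's quasi-likelihood test with Benjamini-Hochberg adjustment over the 16003 genes with enough counts, was under 0.05. Adipocyte markers were abundant in every library (summed level of 11 genes 34700 to 49400 CPM in control mice and 35300 to 50300 in cachectic mice), with Cidec called higher (log2 fold change 0.87), Lep called lower (-3.14) and 9 of the 11 not called. Marker sums of several other cell types did not overlap between the groups. The summed level of 8 endothelial markers was 1560 to 1600 CPM in control and 2210 to 3170 CPM in cachectic mice (4 of 8 called higher), that of 8 neutrophil markers 27.8 to 47.8 and 246 to 637 CPM (7 of 7 tested called higher), and that of 6 erythroid markers 252 to 450 and 1330 to 2850 CPM (6 of 6 called higher). The sum of 8 smooth muscle markers was 550 to 938 CPM in control and 352 to 510 CPM in cachectic mice (1 of 8 called lower). That of 7 fat progenitor markers overlapped, at 2790 to 3320 and 1990 to 2820 CPM, with Col15a1 (-2.56) and Pi16 (-1.72) called lower and Icam1 (1.35) called higher. Their part in the results was not tested. In bulk tissue, fewer cells of a type and less RNA per cell cannot be told apart.

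Of the 10 genes, 9 had enough counts to be tested. In cachectic eWAT, 6 of them rose (Foxo3, Foxo4, Fbxo32, Sesn1, Pik3ip1 and Txnip), none was called lower, and Foxo1, Sesn3 and Cited2 did not pass the threshold. Among all 16003 tested genes, 9.00% were called higher and 8.63% lower. The median log2 fold change of the 9 genes was 0.75, beside 0.0 over all tested genes. The values of the groups did not overlap in 7 of the 9, the 6 that rose and Sesn3, against 40.5% of all tested genes. Without control replicate 2 or without control replicate 3 the number called higher was 3 (Fbxo32, Sesn1 and Txnip), and the calls over all genes also fell, to 600 and 382 higher.

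**Figure D1:**
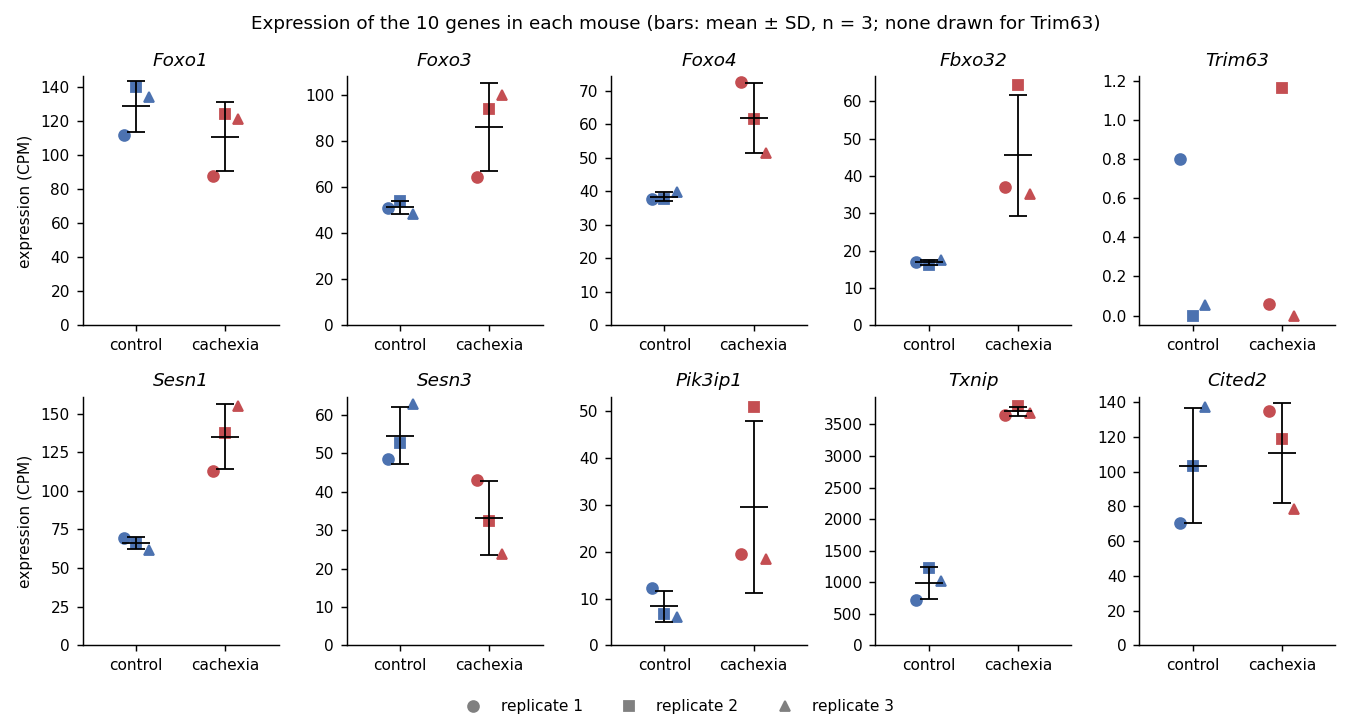
Expression in CPM of each of the 10 genes in the 3 control and 3 cachectic mice, on linear axes. Points are single mice, with the replicate number given by the shape, and bars are mean ± SD (n = 3), left out for Trim63. Txnip shows the widest gap, with cachectic mice at 3647 to 3786 CPM and control mice at 715 to 1224 CPM.

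Among the FoxO factors, Foxo3 and Foxo4 rose and Foxo1 did not pass the threshold. Foxo1, the factor best known for opposing insulin action in fat and liver, was at 112, 140 and 134 CPM in control replicates 1, 2 and 3 and at 87.6, 124 and 121 CPM in cachexia replicates 1, 2 and 3. The groups overlapped, and cachexia replicate 1 was the lowest of the 6. The log2 fold change of cachectic over control mice was -0.21 (standard error [SE] 0.17, edgeR adjusted p = 0.422), and it stayed between -0.39 and -0.07 in the 16 other settings tried, none of which called it.

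Foxo3, which is linked to muscle atrophy and to stress resistance, was at 51.0, 54.0 and 48.5 CPM in the control mice and at 64.2, 94.0 and 99.9 CPM in the cachectic mice. All 3 cachectic mice lay above all 3 controls, and the controls were close together (51.2 ± 2.75 CPM, SD, n = 3, against 86.0 ± 19.1 CPM, SD, n = 3). Its expression rose with a log2 fold change of 0.75 (SE 0.18, edgeR adjusted p = 0.0267). The call was lost when any of control replicates 1, 2 or 3 or cachexia replicates 2 or 3 was left out (adjusted p = 0.0578 to 0.109 from edgeR), with log2 fold changes from 0.63 to 0.92 over all replicates left out.

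Foxo4, the X-linked member of the family, was at 37.6, 37.7 and 40.0 CPM in the control mice and at 72.6, 61.5 and 51.6 CPM in the cachectic mice. Again the groups did not overlap, but here cachexia replicate 1 was the highest, whereas it was the lowest cachectic mouse for Foxo1 and Foxo3. The log2 fold change was 0.69 (SE 0.15, edgeR adjusted p = 0.0196), and leaving out a control mouse gave adjusted p = 0.0503 to 0.0774 from edgeR. The remaining relative, Foxo6, was barely detected (1.20 to 2.70 CPM in control and 1.34 to 1.44 CPM in cachectic mice).

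Levels of different genes can be compared only per length of the gene model. As a share of the summed FoxO count per length within each mouse, Foxo1 made up 42.4%, 47.4% and 46.4% in control mice and 25.6%, 32.2% and 33.3% in cachectic mice. Every cachectic mouse therefore had a smaller Foxo1 share than every control, with a difference of -15.0 percentage points (two-sided exact permutation test, p = 0.1, the smallest that 3 against 3 mice allow). The share of Foxo4 was 33.9% ± 1.94 (SD, n = 3) in control and 42.6% ± 9.12 (SD, n = 3) in cachectic mice, and that of Foxo3 20.8% ± 1.45 (SD, n = 3) and 27.0% ± 5.04 (SD, n = 3), with p = 0.2 for each in the exact permutation test. Foxo1 held the largest share in each control mouse, and Foxo4 in each cachectic mouse.

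**Figure D2:**
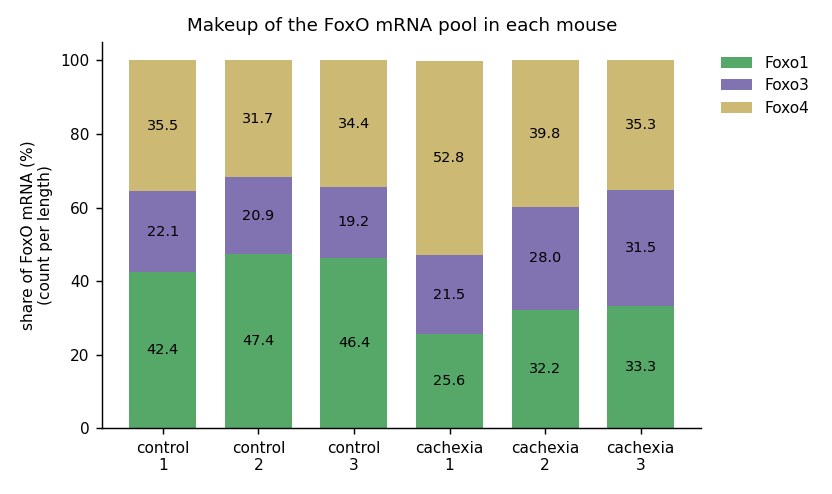
Stacked bars of the share of Foxo1, Foxo3 and Foxo4 in their summed count per length, in percent, for each of the 6 mice. The Foxo1 share was 42.4% to 47.4% in control mice and 25.6% to 33.3% in cachectic mice, while the split between Foxo3 and Foxo4 varied among the cachectic mice.

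Because a ratio within a mouse does not depend on scaling between libraries, 3 pairs of these genes were also compared that way (p-values adjusted over the 3). Of the 4 pairs planned, Fbxo32 to Trim63 was left out because Trim63 had counts of 0. The differences in ratio largely restate the fold changes of the same genes and are not separate evidence. The log2 ratio of Foxo1 to Foxo3, both per length, was 0.94, 1.18 and 1.27 in control mice and 0.25, 0.20 and 0.08 in cachectic mice, a difference of -0.95 (exact permutation test, p = 0.1, adjusted p = 0.1). That of Foxo1 to Foxo4 differed by -0.90 (exact permutation test, p = 0.1, adjusted p = 0.1) and changed sign, from 0.42 ± 0.16 (SD, n = 3) in control to -0.48 ± 0.50 (SD, n = 3) in cachectic mice. The summed FoxO level, in CPM divided by gene length in kilobases (RPKM), was 30.4, 34.1 and 33.3 in control and 39.4, 44.4 and 41.9 in cachectic mice (exact permutation test, p = 0.1).

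Fbxo32 and Trim63 encode atrogin-1 and MuRF1, the ubiquitin ligases by which muscle atrophy is most often recognized. Fbxo32 was at 17.0, 16.2 and 17.5 CPM in control mice and at 37.1, 64.2 and 35.3 CPM in cachectic mice. The controls were close together, all cachectic mice lay far above them, and cachexia replicate 2 was the highest. The log2 fold change was 1.43 (SE 0.24, edgeR adjusted p = 0.0086), a 2.70-fold rise that was called in all 16 other settings.

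Trim63 was close to undetected. It had 16, 0 and 1 counts in control mice and 1, 19 and 0 counts in cachectic mice, too few to be tested, and a count of 0 allows up to 3. Nearly all of its reads came from control replicate 1 and cachexia replicate 2, and the groups overlapped fully. When the filter on low counts was dropped, its log2 fold change was 0.49 (adjusted p = 0.861 from edgeR). Skeletal muscle markers were low in these libraries and not higher in cachexia. Of 7 tested, 2 were called lower (28.6%, beside 8.63% of all tested genes). These were Myl1 (log2 fold change -1.94) and Actn3 (-2.17). The summed level of all 14 skeletal muscle markers, mostly Acta1 and Myl1, was 75.1, 116 and 119 CPM in control mice. In cachectic mice it was 33.0, 19.2 and 85.7 CPM, and Myh4 and Tnnc2 were at 0 in every library. The source of the few Trim63 reads was not tested.

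The sestrins, which are induced by stress and by FoxO factors and restrain the growth kinase complex mTORC1, had fold changes of opposite sign. Sesn1 was at 69.6, 66.6 and 61.9 CPM in control mice and at 113, 137 and 155 CPM in cachectic mice. All cachectic mice lay far above the controls, and the log2 fold change of 1.03 (SE 0.15, edgeR adjusted p = 0.00537), a 2.04-fold rise, was called in all 16 other settings. Sesn3 was at 48.5, 52.6 and 62.8 CPM in control mice and at 43.0, 32.5 and 23.8 CPM in cachectic mice. The groups did not overlap, but cachexia replicate 1 came close to control replicate 1.

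For Sesn3 the log2 fold change was -0.72 (SE 0.22), just short of the threshold (adjusted p = 0.0575 from edgeR). It passed in 3 of the 16 other settings, with DESeq2 (adjusted p = 0.0208), with no filter on low counts (0.0456 from edgeR) and without cachexia replicate 1, where the log2 fold change was -0.96 (adjusted p = 0.0303 from edgeR). Within each mouse, the log2 ratio of Sesn1 to Sesn3 per length was 2.46, 2.28 and 1.92 in control and 3.33, 4.02 and 4.64 in cachectic mice. Each of the 3 cachectic mice thus exceeded all controls, with a mean difference of 1.78 (exact permutation test, p = 0.1, adjusted p = 0.1). The remaining sestrin, Sesn2, rose from 32.3 ± 3.44 (SD, n = 3) to 60.7 ± 18.0 CPM (SD, n = 3), a log2 fold change of 0.91 (SE 0.21, edgeR adjusted p = 0.025), and lost the call without any of the 3 controls (adjusted p = 0.0533 to 0.104 from edgeR).

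Sesn1 and Foxo3 are neighbors on chromosome 10. In the coordinates of the files, which are those of GRCm38, Sesn1 lies from 41809935 to 41908424 on the plus strand and Foxo3 from 42181841 to 42276755 on the minus strand, 273416 bases apart. Of the 3 genes listed between them, Armc2 alone was tested, at 0.343 to 4.25 CPM in control and 0.392 to 0.797 CPM in cachectic mice (log2 fold change -1.93, adjusted p = 0.139 from edgeR). Both Sesn1 and Foxo3 were lowest in cachexia replicate 1 and highest in cachexia replicate 3 among the cachectic mice. This order is not particular to the locus. S1pr1 and Mlxip, on other chromosomes, had it too, while Insr did not.

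Pik3ip1 encodes a membrane protein that binds PI3K and inhibits it, upstream of AKT. It was at 12.2, 6.63 and 6.11 CPM in control mice and at 19.5, 50.7 and 18.5 CPM in cachectic mice. The groups did not overlap, but cachexia replicate 2 stood far above the other two. The log2 fold change was 1.83 (SE 0.45, edgeR adjusted p = 0.0306), and it was 1.19 without cachexia replicate 2 (adjusted p = 0.0577 from edgeR). Leaving out control replicate 2 (adjusted p = 0.102 from edgeR) or control replicate 3 (adjusted p = 0.113 from edgeR) also ended the call, as did limma on log2(FPKM + 1) (adjusted p = 0.0515).

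Txnip encodes the thioredoxin-interacting protein, an arrestin-like protein that inhibits thioredoxin and lowers glucose uptake. Besides FoxO factors, the glucose-sensing factors MondoA (Mlxip) and ChREBP (Mlxipl) are known to activate it. Txnip was at 715, 1224 and 1021 CPM in control mice and at 3647, 3786 and 3681 CPM in cachectic mice. The lowest cachectic mouse was far above the highest control, and the cachectic mice differed little from each other (3705 ± 72.4 CPM, SD, n = 3, against 987 ± 256 CPM, SD, n = 3).

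The log2 fold change of Txnip was 1.91 (SE 0.25, edgeR adjusted p = 0.00397), a 3.75-fold rise that was called in all 16 other settings. By mean CPM, which is not divided by gene length, Txnip ranked 79 among the tested genes in control mice and 16 in cachectic mice. Gm15441, which lies on its other strand, held 15 to 51 counts per library. The sources used here do not say whether strand was used in counting, and without strand reads from the 2 genes cannot be told apart.

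The upstream sequence of Txnip and that of Trim63 are shown because they were the ones, among the windows found for these genes, that hold the core FoxO-binding element GTAAACA. RefSeq promoter sequences (GRCm38.p6) were found for 8 of the 10 genes, with 9 windows, and the 250 bases before each start were searched on both strands. The element, in capitals below, was in 2 of the 9 windows, against 3.17% of 32536 windows of the same length over all genes. It reads GTAAACA in that of Txnip, 121 bases before the start, and TGTTTAC, the same element on the other strand, in that of Trim63, 194 bases before the start. Txnip is at chr3:96557707-96557956 (plus strand) and Trim63 at chr4:134314870-134315119 (plus strand).
Txnip: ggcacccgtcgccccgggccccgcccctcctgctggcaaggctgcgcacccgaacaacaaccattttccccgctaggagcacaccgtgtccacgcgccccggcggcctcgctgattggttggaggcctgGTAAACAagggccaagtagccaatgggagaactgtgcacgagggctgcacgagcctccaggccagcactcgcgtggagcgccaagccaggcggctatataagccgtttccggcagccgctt
Trim63: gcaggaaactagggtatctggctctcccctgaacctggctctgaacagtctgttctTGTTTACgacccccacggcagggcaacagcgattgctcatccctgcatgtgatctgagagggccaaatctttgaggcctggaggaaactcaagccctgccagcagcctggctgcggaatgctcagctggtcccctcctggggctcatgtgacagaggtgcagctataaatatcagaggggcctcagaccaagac

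The variant CAAAACA, known from insulin-repressed promoters, was in 0 of the 9 windows (5.6% of all windows), and the E-box CACGTG was in 1, that of Cited2 (6.04%). Only these exact letters were searched. Looser or paired forms of the E-box were not looked for, in the Txnip window or elsewhere. These matches describe letters only, and no binding was measured. Of the 2 genes with the element, Txnip rose and Trim63 had too few reads to be tested.

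Cited2 encodes a coactivator-binding protein that competes with HIF-1α for p300 and CBP. It was at 70.5, 103 and 137 CPM in control mice and at 135, 119 and 78.6 CPM in cachectic mice. The control mice spanned the whole range, the cachectic mice lay within it, and the log2 fold change was 0.10 (SE 0.28, edgeR adjusted p = 0.837). Its sign changed when control replicate 1 (-0.12) or cachexia replicate 1 (-0.07) was left out.

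**Figure D3:**
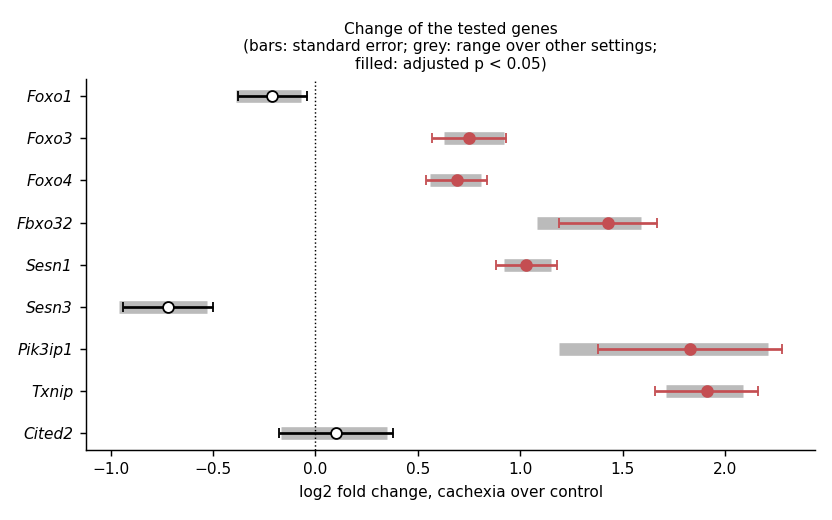
Log2 fold change of cachectic over control mice for the 9 tested genes, with the standard error as bars and the range over the 16 other settings in grey. Filled red points passed an adjusted p-value of 0.05 in edgeR's test. The 6 genes that rose lie between 0.69 and 1.91, and the grey band of Cited2 alone crosses 0.

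Per length, these genes spanned a wide range of abundance. In control mice the order was Txnip (316 ± 81.9 RPKM, SD, n = 3), Cited2 (42.1 ± 13.5), Sesn1 (16.6 ± 0.978), Foxo1 (14.8 ± 1.71), Foxo4 (11.0 ± 0.381), Foxo3 (6.76 ± 0.363), Sesn3 (3.58 ± 0.483), Fbxo32 (2.42 ± 0.0934) and Pik3ip1 (1.95 ± 0.792). The values of Sesn1 and Foxo1 overlapped, as did those of Fbxo32 and Pik3ip1. In cachectic mice Txnip (1190 ± 23.2 RPKM, SD, n = 3) was followed by Cited2 (45.1 ± 11.8) and Sesn1 (33.9 ± 5.31), which overlapped, and then by Foxo4 (17.8 ± 3.02), Foxo1 (12.8 ± 2.33) and Foxo3 (11.4 ± 2.52). Foxo1 and Foxo3 were no longer separated there, whereas in control mice the lowest Foxo1 value (12.9 RPKM) was well above the highest Foxo3 value (7.13 RPKM).

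Other genes of the pathway were read from 7 lists written by function, with earlier results of these data known. Over the lists together, 30 of 152 tested genes were higher and 10 lower (19.7% and 6.58%, beside 9.00% and 8.63% of all tested genes), with a median log2 fold change of 0.02. Upstream of FoxO, in a list of 26 receptors, kinases and phosphatases of the insulin branch, 4 rose and 2 fell (15.4% and 7.69%), with a median log2 fold change of 0.06. Insr, the insulin receptor and itself a known FoxO target, rose from 183 ± 41.9 (SD, n = 3) to 417 ± 24.3 CPM (SD, n = 3), a log2 fold change of 1.19 (SE 0.20). Pik3r1, which encodes the main regulatory subunit of PI3K, fell from 741, 634 and 833 CPM in control mice to 188, 220 and 136 CPM in cachectic mice. Its log2 fold change was -2.02 (SE 0.22, edgeR adjusted p = 0.0025), while Pik3r3, another regulatory subunit, rose by 1.07 on the log2 scale from a much lower level of 15.8 ± 1.53 CPM (SD, n = 3).

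Sgk1, a kinase related to AKT that phosphorylates FoxO factors, rose from 74.1 ± 5.31 (SD, n = 3) to 421 ± 121 CPM (SD, n = 3), a log2 fold change of 2.51 (SE 0.23, edgeR adjusted p = 0.0014). Mapkap1, a subunit of the AKT-activating complex mTORC2, fell with a log2 fold change of -0.64 (SE 0.12). Of 27 cofactors and modifying enzymes, none rose and 2 fell (7.41%, beside 8.63% of all tested genes). These were Ywhag, a 14-3-3 protein (log2 fold change -1.09, adjusted p = 0.0119 from edgeR), and Stk4, the kinase MST1 (-0.57, adjusted p = 0.0336 from edgeR).

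Of 42 other tested genes described as FoxO targets, 18 rose, 2 fell and 22 did not pass, with a median log2 fold change of 0.64 (42.9% higher, beside 9.00% of all tested genes). Because earlier results were known when the list was written, this share describes the list and is not an independent test. Ddit4, an inhibitor of mTORC1, rose from 46.1, 26.2 and 22.6 CPM in control mice to 157, 288 and 308 CPM in cachectic mice, a log2 fold change of 2.99 (SE 0.36). Gadd45b, a stress gene, rose from 10.5 ± 0.165 (SD, n = 3) to 37.6 ± 9.55 CPM (SD, n = 3), a log2 fold change of 1.84. S1pr1, the sphingosine 1-phosphate receptor that is abundant in endothelium, rose with a log2 fold change of 1.45. It was at 278, 344 and 382 CPM in cachexia replicates 1, 2 and 3, where the endothelial marker sum was 2610, 3170 and 2210 CPM. Whether endothelial content had a part in its rise was not tested. The 2 that fell were Bbc3, which encodes the proapoptotic protein PUMA (log2 fold change -2.19, adjusted p = 0.00164 from edgeR), and Bcl6, a transcriptional repressor (-2.04, adjusted p = 0.0197 from edgeR). Many of these genes have other regulators, and several are targets of the glucocorticoid receptor. Without control replicate 2 or control replicate 3, 11 and 8 of these targets were called higher, and the lists together held 17 and 13.

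**Figure D4:**
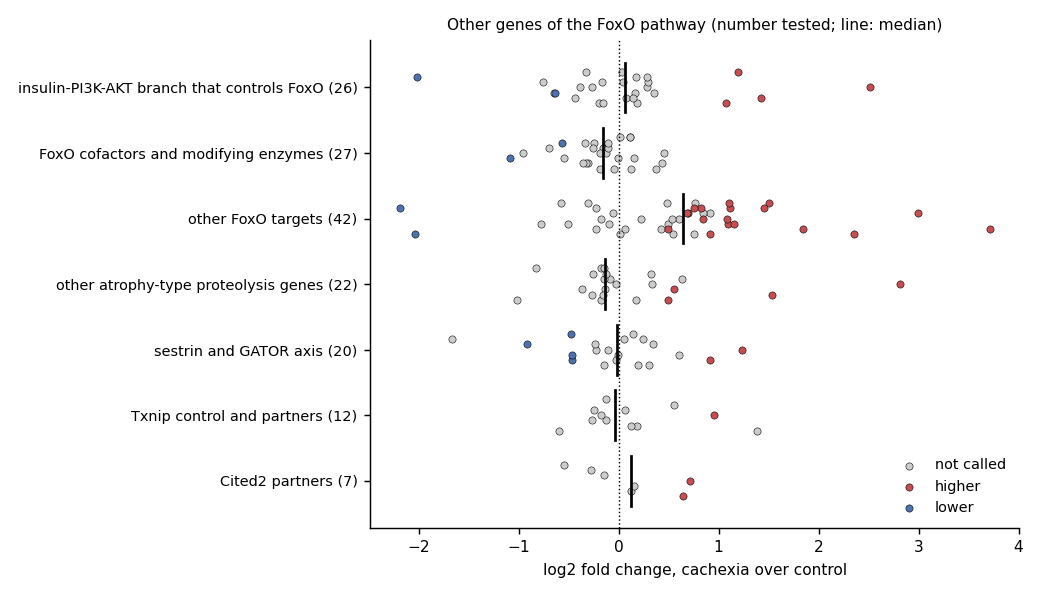
Log2 fold change of cachectic over control mice for the tested genes of the 7 pathway lists, 1 point per gene, with the number tested in brackets. Red and blue points were called higher and lower, and the black line is the median of each list. The list of other FoxO targets has its median at 0.64, and the other medians lie between -0.16 and 0.12.

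Among 22 other genes of atrophy-type proteolysis, 4 rose (18.2%, beside 9.00% of all tested genes) and none fell, with a median log2 fold change of -0.14. Fbxo31 and Fbxo21, which like Fbxo32 encode F-box proteins of ubiquitin ligases, rose most clearly. Fbxo31 was at 47.2, 45.6 and 40.3 CPM in control mice and at 180, 471 and 281 CPM in cachectic mice (log2 fold change 2.81, SE 0.33, edgeR adjusted p = 0.00302). It was highest in cachexia replicate 2, as Fbxo32 was. Fbxo21 was at 64.4, 67.0 and 66.3 CPM in control mice and at 293, 147 and 132 CPM in cachectic mice (log2 fold change 1.53, adjusted p = 0.0132 from edgeR). Ubr2, a ligase of the N-degron pathway, had a log2 fold change of 0.55 (adjusted p = 0.0303 from edgeR). With any mouse other than cachexia replicate 1 left out, 1 or 2 genes of this list were called higher, Fbxo31 among them each time.

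In the amino acid sensing pathway to which sestrins belong, 2 of 20 tested genes rose and 4 fell. Flcn, whose product folliculin acts on the Rag GTPases, rose from 50.3 ± 3.18 (SD, n = 3) to 118 ± 9.90 CPM (SD, n = 3), a log2 fold change of 1.23 (SE 0.12, edgeR adjusted p = 0.00181), and the other was Sesn2. Lamtor1, which anchors the Rag GTPases at the lysosome, fell with a log2 fold change of -0.92. Sec13 (-0.48) and Rraga (-0.47) fell less, and Rraga was called in 7 of the 16 other settings. With 1 mouse left out, 1 to 3 genes of this list were called higher and 0 to 3 lower. Of 12 genes that control Txnip or partner its product, Mlxip alone rose (8.33%, beside 9.00% of all tested genes). It went from 58.3 ± 5.22 (SD, n = 3) to 113 ± 36.4 CPM (SD, n = 3), a log2 fold change of 0.95 (adjusted p = 0.0302 from edgeR). Mlxip was called in 9 of the 16 other settings. Of 7 tested partners of Cited2, 28.6% were called higher, beside 9.00% of all tested genes. These were Epas1 (log2 fold change 0.71) and Arnt (0.64), both of the hypoxia-inducible factor family. Their adjusted p-values were 0.0483 and 0.0371 from edgeR, and they were called in 7 and 9 of the 16 other settings.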

How the data were processed

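RNA-seq of eWAT from 3 cachectic and 3 control mice was analyzed, with groups taken from the sample labels. The authors cleaned the reads of adapter, poly-N and low-quality sequence, used Hisat2 for alignment and FeatureCounts (1.5.0-p3 in the submitters' processing notes) for counting, and deposited raw counts. FPKM values, also deposited by the authors, divide the count by gene length and library size. The processing notes name mm9, but 98.3% of the genes found in GENCODE M21 (99.8% of all) have their GRCm38 coordinates. The authors' table of DEGs holds their DESeq2 fold changes, p-values and 8 columns of sample and group values. It was not used.

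The test was edgeR's quasi-likelihood test (edgeR 4.0.16 in R 4.3.3) between the 2 groups, after filterByExpr and TMM scaling (factors 0.938 to 1.06), with no covariate. Its p-values were adjusted over all 16003 genes kept by the method of Benjamini and Hochberg, at a threshold of 0.05. The biological coefficient of variation was 0.264, which with the total counts sets the precision. The standard error is the log2 fold change divided by the square root of F. Single values were compared by two-sided exact permutation tests. No replicates had near-identical counts. P-values concern the difference between the groups and rest on these mice alone.

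Alternatives were other scalings (RLE, plain totals), other filters (none, or 10 counts in all samples), single mice left out, the replicate number as a block, other tools (DESeq2 1.42.0, voom in limma 3.58.1, and limma on log2 FPKM after adding 1 or 0.1), and, chosen after seeing the data, control replicate 1 and cachexia replicate 2 left out together. Genes and lists were chosen with earlier results of these data known. The pathway genes named are the 3 with the smallest p-value in each direction of each list, with Foxo6 and Sesn2. Armc2 and Gm15441 were named after their values were seen. Replicate numbers do not pair the mice (correlations of deviations from the group means -0.003, -0.011 and 0.008).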

Additional observations from a re-analysis of the deposited data

How the results depend on the processing

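Fbxo32, Sesn1 and Txnip were called higher in all 16 other settings. Foxo3 was called in 10, Foxo4 in 12, Pik3ip1 in 11 and Sesn3 in 3, and all kept their direction. Cited2, never called, changed sign in 3 settings, with a log2 fold change of -0.17 when control replicate 1 and cachexia replicate 2 were left out together and a range of -0.12 to 0.35 over single mice left out. With 1 mouse left out, the genes called over all ranged from 382 to 1197 higher and from 446 to 1142 lower, the 10 genes from 3 to 6 higher and from 0 to 1 lower, and the pathway genes from 13 to 25 higher and from 2 to 9 lower. With DESeq2 and with no filter on low counts, 1 of the 10 genes was lower (Sesn3). With the replicate block, whose numbers do not pair the mice, 913 genes over all were called higher and 968 lower. Of the 10 genes, 5 were then called higher and 0 lower, and Pik3ip1 lost its call (adjusted p = 0.0522 from edgeR). Of the pathway genes, 21 were called higher and 6 lower. The cause of these shifts was not tested. Plain library totals moved the median of all genes to 0.05 and left all calls of the 10 genes in place. The differences in FoxO shares and in the 3 ratios kept their sign under every alternative tried, though 3 mice against 3 cannot pass 0.05. Of the 23 pathway genes named, all kept their direction and 10 were called in every setting. Counts limit Trim63 most.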

Other observations

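The cachectic mouse with the highest level was replicate 1 for 3 of the 10 genes, replicate 2 for 5 and replicate 3 for 2. Replicate 2 was highest for Foxo1, Fbxo32, Trim63, Pik3ip1 and Txnip. Its lead over replicate 3 was narrow for Foxo1 (124 against 121 CPM) and Txnip (3786 against 3681 CPM). Trim63 had too few counts to be tested, and the shares over all genes were not computed. Of 9 glucocorticoid receptor targets, 2 were called higher (Sgk1 and Per1), 22.2% beside 9.00% of all tested genes. The summed level of all 9 was 1150 to 1310 CPM in control and 1890 to 4450 CPM in cachectic mice. Mt1, which was not called, was at 171, 450 and 2239 CPM in the cachectic mice and was the largest part of the highest sum.

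Gm15441, the gene antisense to Txnip, had 0.751, 1.66 and 1.19 CPM in control mice and 2.04, 2.08 and 3.34 CPM in cachectic mice. All cachectic mice were above all controls, and its log2 fold change of 1.05 (standard error 0.42) did not pass the threshold (adjusted p = 0.124 from edgeR).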
